A study of Talpa occidentalis and Mus musculus with 35 samples.

Results

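Close divergent gene pairs are neighbouring genes that are read away from each other across a short gap. In the annotation of the Iberian mole genome (Talpa occidentalis, assembly talOcc3), named gene models were sorted along each scaffold by their start. A pair was taken when its members were adjacent and did not overlap, the first lay on the minus strand and the second on the plus strand, and the start of the second minus the end of the first was below 2000 bases. This gave 359 pairs with 718 loci, out of 19487 adjacent non-overlapping pairs and 21490 named gene models. The pairs were chosen by their orientation and gap, so both are given here as a description.

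When 2 genes diverge, their promoters lie in the stretch between them. Where the transcription starts are near each other, that stretch is called a bidirectional promoter, and in mammals such promoters are often CpG-rich and serve genes that nearly every cell needs, among them genes of mitochondria, ribosomes and DNA repair. Genes that converge share their 3′ flanks instead, and genes on the same strand place the end of the first before the start of the second, so these 2 orientations served as references.

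The series was made for RNA sequencing of gonads in moles, whose females develop an ovotestis with an ovarian and a testicular part. Its labels described 35 libraries in 16 groups, of which 19 came from moles, all wild type, and 16 from mice. At embryonic day 15 the mole gonads were ovotestis and testis (2 libraries each). Later mole samples, from postnatal day 7 (3 libraries per tissue) and from adults (2 per tissue), were the testis and, separately, the testicular and the ovarian part of the ovotestis. Wild-type mouse ovary and testis of strain CD1 were taken at embryonic day 13.5, at postnatal day 7 and at 10 weeks (2 each). Mouse ovaries of embryonic day 13.5 came from an Fgf9 mutant and from wild-type B6 embryos (2 each), and the labels do not say what the mutation is. The annotation holds no value for any library, so expression of these pairs was not analysed here and the library depth is unknown. The models hold coding parts without untranslated regions. Gaps were measured between the ends of gene models, not from one transcription start to the other. With the outer ends of coding parts as positions there were 357 pairs with a median gap of 705 bases, against 359 and 688.

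With all pairs counted, divergent neighbours were the orientation least often found close together. Of 4607 adjacent divergent pairs, 359 or 7.79% lay below the limit (95% exact binomial interval 7.03 to 8.60%), against 681 of 4623 convergent pairs or 14.7% (13.7 to 15.8%) and 1211 of 10257 same-strand pairs or 11.8% (11.2 to 12.4%). Over all orientations the share was 11.6%. Of the 1211 close same-strand pairs, 642 were 2 loci of a single symbol. Without such pairs 355 divergent, 674 convergent and 569 same-strand pairs were left. Their shares among adjacent pairs of different symbols were not computed, so the rank against same-strand pairs holds only with all pairs counted. Divergent neighbours were also the farthest apart in general, with a median gap of 29568 bases, against 10873 for convergent and 18011 for same-strand neighbours. These intervals cover counting error over gene models, which are not replicates, and no test was run on them.

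Within the limit, the divergent gaps were gathered at the short end. Their median was 688 bases (95% order-statistic interval 570 to 839), with quartiles at 234 and 1310 and a range of 14 to 1997. Convergent gaps had a median of 992 bases (919 to 1059). Below 100 bases there were 47 divergent and 22 convergent pairs. From 100 to under 500 bases the order was the opposite, with 103 divergent against 154 convergent pairs. From 500 to under 1000 bases there were 67 against 165, and from 1000 to under 2000 bases 142 against 340. Divergent pairs per convergent pair thus fell from 2.14 in the shortest class to 0.669, 0.406 and 0.418, and the ratio was 0.444 from 2000 to under 3000 bases. Same-strand pairs counted 295 below 100 bases, but 53% of all close same-strand pairs (642 of 1211) were 2 loci of a single symbol, against 1.11% of the divergent pairs (4 of 359) and 1.03% of the convergent pairs (7 of 681). With pairs of a single symbol left out, the same-strand median gap was 776 bases (680 to 872), with a first quartile of 197. Divergent pairs then had 688 bases (570 to 839) and 238.5, so short gaps were not particular to divergent pairs.

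**Figure D1:**
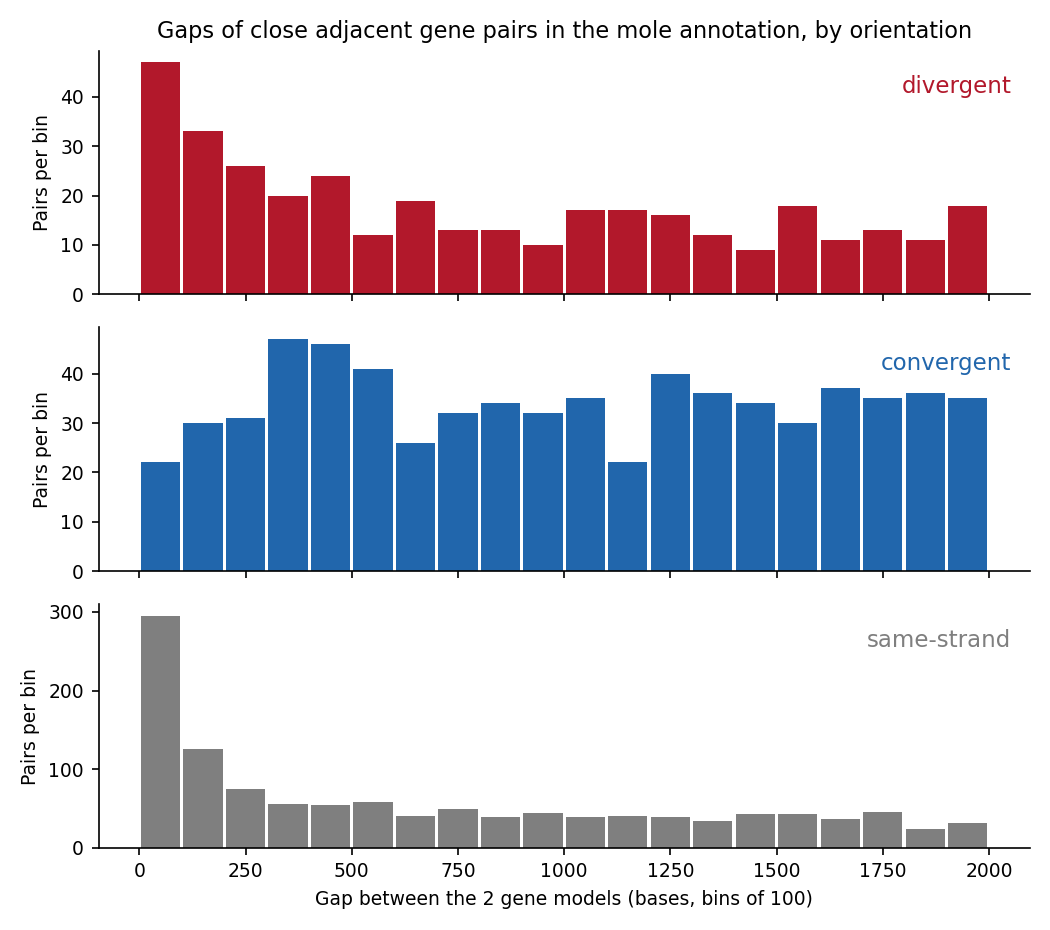
Number of close adjacent pairs (vertical axis, each panel with its own scale) by gap in bins of 100 bases (horizontal axis), for divergent, convergent and same-strand neighbours. The divergent bars are tallest in the first bin, with 47 pairs, where the convergent panel has 22; the same-strand panel starts at 295.

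The smallest gaps were 14 bases and were found for 2 pairs. One joined CFAP57, a protein of motile cilia, to EBNA1BP2, a ribosome biogenesis factor. The other joined 2 loci of L1CAM, a neural adhesion molecule, on opposite strands. NLE1, a ribosome assembly factor, and UNC45B, a myosin chaperone of muscle, were 21 bases apart. GALNS, a lysosomal sulfatase, and TRAPPC2L, a subunit of a vesicle tethering complex, were 23 bases apart, as were PDIA3, a disulfide isomerase of the endoplasmic reticulum, and STRC, the stereocilin of inner ear hair cells. The same gap of 23 bases was found for RNF25, a ubiquitin ligase, with STK36, a kinase of motile cilia, and for VTN, the plasma protein vitronectin, with SARM1, an enzyme of axon degeneration. In 6 of these 7 pairs at least 1 model reached beyond the part that aligned to its reference transcript on the side of the gap, by 514 bases in EBNA1BP2, 1667 in the L1CAM copy, 669 in UNC45B, 1333 in TRAPPC2L, 1854 in STRC and 441 in SARM1. RNF25/STK36 was the exception, with 2 and 0 unaligned bases. How much of the shortness of these gaps goes with such added coding sequence was not tested.

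At the other end of the range, the 3 widest pairs inside the limit were MRPS11/MRPL46 (1987 bases, both proteins of the mitochondrial ribosome), ENOPH1/HNRNPDL (1989 bases, an enzyme of methionine salvage and an RNA-binding protein) and BANF1/EIF1AD (1997 bases, a chromatin-binding factor of the nuclear envelope and a protein with an initiation factor domain). Just outside it lay SBDS/TYW1 at 2002 bases (a ribosome maturation factor and an enzyme of tRNA modification), a pair at 2005 bases, and GPR108/TRIP10 at 2008 bases (a Golgi membrane protein and an adaptor of actin remodelling).

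Mitochondrial ribosomal protein genes had the highest share of members among the 23 lists and families. Of 69 mitochondrial ribosomal protein genes with a locus, 15 had a locus in a close divergent pair, or 21.7% (12.7 to 33.3%), against 713 of all 16196 symbols or 4.4%. The same list had 6 members in close convergent pairs (8.7%, 3.26 to 18%), where all symbols had 8.31%, and 8 in close same-strand pairs (11.6%), where all symbols had 8.93%. The divergent and convergent intervals of the list overlap. In pairs whose models both aligned to their reference transcripts to within 10 bases of the gap, the divergent share of the list was 11.6% and that of all symbols 1.89%. MRPL47 and NDUFB5 (a subunit of respiratory complex I) were 95 bases apart, and MRPL13 and MTBP (an MDM2-binding protein) were 375 bases apart. MRPS12 faced SARS2, the mitochondrial seryl-tRNA synthetase, across 552 bases. MRPL18 faced TCP1, a subunit of the cytosolic chaperonin, across 881 bases, and MRPL43 faced TWNK, the helicase of mitochondrial DNA, across 676 bases. The MRPL32 locus beside PSMA2 (686 bases) was a further copy with 22.3% of the highest score of its symbol, and without such lower-scoring loci the list counted 14 of 69, or 20.3%.

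Subunits of the respiratory chain and ATP synthase followed with 13 of 75 (17.3%, 9.57 to 27.8%), and 8 of these 13 gaps were below 250 bases. ATP synthase subunit gene ATP5F1 lay 75 bases from WDR77, a partner of an arginine methyltransferase. Of the complex I subunits, NDUFA9 lay 83 bases from a partial locus of the sperm protein gene AKAP3 and NDUFA2 lay 128 bases from the splicing factor IK. NDUFA7 lay 164 bases from RPS28 and NDUFB8 lay 173 bases from HIF1AN, the asparagine hydroxylase that acts on hypoxia-inducible factor. SDHD, a membrane anchor of succinate dehydrogenase, lay 235 bases from TIMM8B, a chaperone of the mitochondrial intermembrane space. The list had 12 of 75 members (16%, 8.55 to 26.3%) in close convergent and 13 (17.3%, 9.57 to 27.8%) in close same-strand pairs. All symbols had 8.31% and 8.93% there and 4.4% in divergent pairs, so raised shares were not particular to divergent pairs. In the pairs with aligned facing ends, the divergent share of the list was 6.67% (2.2 to 14.9%), where all symbols had 1.89%. Import and assembly factors of mitochondria counted 10 of 47 (21.3%, 10.7 to 35.7%) in convergent and 8 of 47 (17%, 7.65 to 30.8%) in same-strand pairs. In divergent pairs they counted 7 of 47 (14.9%, 6.2 to 28.3%). Among them were TIMM17B (364 bases from PQBP1), TIMM10B (758 from ARFIP2) and NDUFAF2, an assembly factor of complex I, which lay 160 bases from the DNA repair gene ERCC8. With aligned facing ends, the divergent share of import and assembly factors was 6.38% (1.34 to 17.5%), an interval that includes the 1.89%.

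Cytosolic ribosomal protein genes had 14 of 78 symbols in close divergent pairs (17.9%, 10.2 to 28.3%) and the same number in close convergent pairs, and 20 of 78 (25.6%) in close same-strand pairs. Such genes have many retrocopies, and 3 of the 14 rested on a locus below the best score of its symbol. Counted on best loci alone, 11 were in divergent (14.1%), 13 in convergent and 4 in same-strand pairs, where all symbols had 4.09%, 7.76% and 7.84%. In the pairs with aligned facing ends, the divergent share was 5.13% (1.41 to 12.6%), an interval that includes the 1.89% of all symbols. RPS25 lay 45 bases from TRAPPC4, a vesicle tethering subunit. RPL9 lay 149 bases from LIAS, the lipoic acid synthase of mitochondria, and RPL7A lay 232 bases from MED22, a subunit of the Mediator complex. RPL4 lay 540 bases from ZWILCH, a kinetochore protein.

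DNA repair genes counted 9 of 69 (13%, 6.14 to 23.3%) in divergent, 12 of 69 in convergent and 6 of 69 in same-strand pairs, beside the 4.4%, 8.31% and 8.93% of all symbols. RAD51B, of homologous recombination, lay 549 bases from ZFYVE26, and the base excision repair genes XRCC1 and APEX1 lay 705 bases from PINLYP and 791 bases from OSGEP. The nuclease genes DCLRE1B and DCLRE1A lay 1015 bases from AP4B1 and 1934 bases from NHLRC2. Aminoacyl-tRNA synthetases counted 4 of 37 in divergent (10.8%, 3.03 to 25.4%), 5 in convergent and 8 in same-strand pairs. HARS2 and HARS, which charge histidine tRNA in mitochondria and cytosol, faced each other across 343 bases, and EARS2 lay 1824 bases from UBFD1. Proteasome and chaperone genes counted 5 of 54 in divergent (9.26%, 3.08 to 20.3%), 8 in convergent and 9 in same-strand pairs. The divergent members were PSMA2, TCP1, PSMC5, PSMB1 and the mitochondrial chaperonin gene HSPD1. The divergent intervals of both lists include the share of all symbols. HSPD1 faced MOB4 across 1973 bases. Not all lists of such basic functions had raised shares. Genes of DNA replication and cell cycle counted 2 of 56 in divergent pairs (3.57%, 0.435 to 12.3%), and splicing factors also 2 of 56. Both shares were below the 4.4% of all symbols, with intervals that include it.

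**Figure D2:**
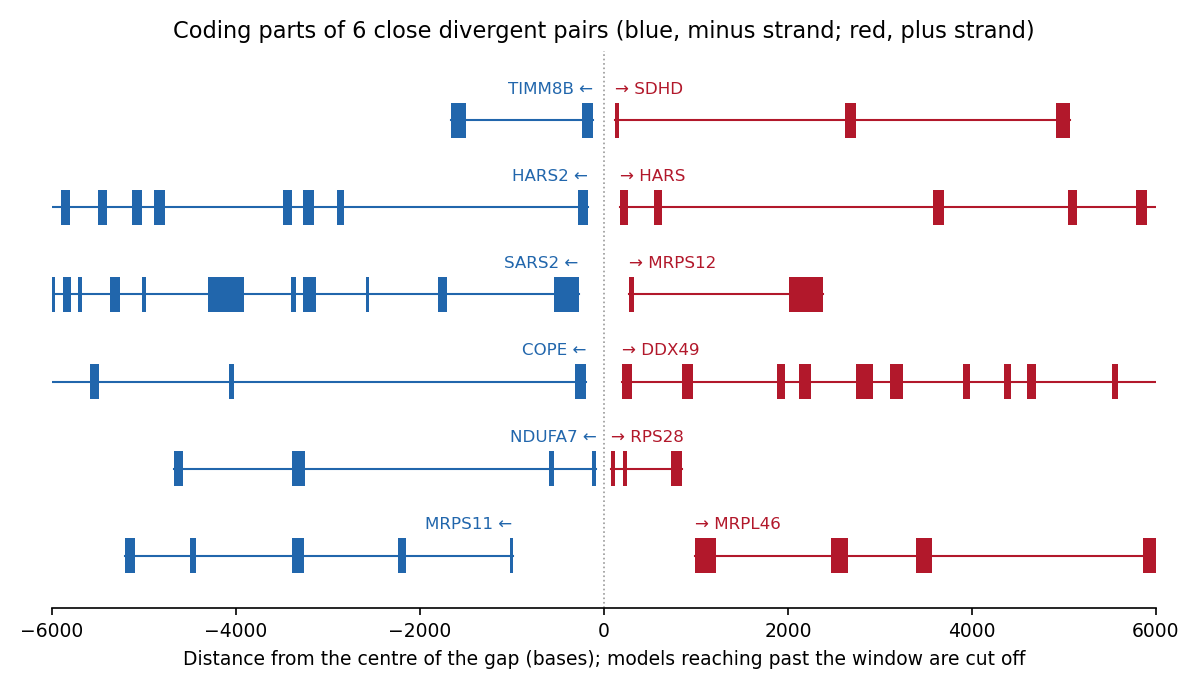
Coding parts (boxes) of 6 close divergent pairs by distance in bases from the centre of the gap, with the minus-strand member in blue on the left and the plus-strand member in red on the right; models that reach past the window are cut off. The gaps run from 164 bases in NDUFA7/RPS28 to 1987 in MRPS11/MRPL46.

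The lists of gonadal genes had shares whose intervals include the 4.4% of all symbols. Of 24 ovary and granulosa genes, 1 was a member, INHA, which encodes the alpha subunit of inhibin and lay 1300 bases from OBSL1, a cytoskeletal adaptor. None of 24 testis and Sertoli cell genes (0 to 14.2%) and none of 26 Leydig cell and steroidogenesis genes (0 to 13.2%) was a member. Germ cell and meiosis genes counted 4 of 48 (8.33%, 2.32 to 20%). Among them were the meiotic cohesin genes SMC1B (55 bases from RIBC2) and STAG3 (471 bases from GPC2) and the recombination gene MSH5 (1709 bases from CLIC1).

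Large families that multiplied in tandem were seldom members. Zinc finger genes named ZNF counted 3 of 238 (1.26%, 0.261 to 3.64%), olfactory receptors 2 of 267 (0.749%, 0.0908 to 2.68%) and keratins with keratin-associated proteins 0 of 68 (0 to 5.28%). The keratin interval includes the 4.4%. In close convergent pairs the shares were 4.62%, 2.25% and 0, where all symbols had 8.31%, so low shares were not particular to divergent pairs. In close same-strand pairs they were 12.2%, 7.87% and 4.41%, where all symbols had 8.93%. All olfactory receptor members formed a single pair, OR4A15/OR4C6, with a gap of 1048 bases. Genes named TMEM, CCDC and FAM, groups formed by name rather than by descent, lay near the share of all symbols with 5.05%, 5.47% and 4.19%.

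**Figure D3:**
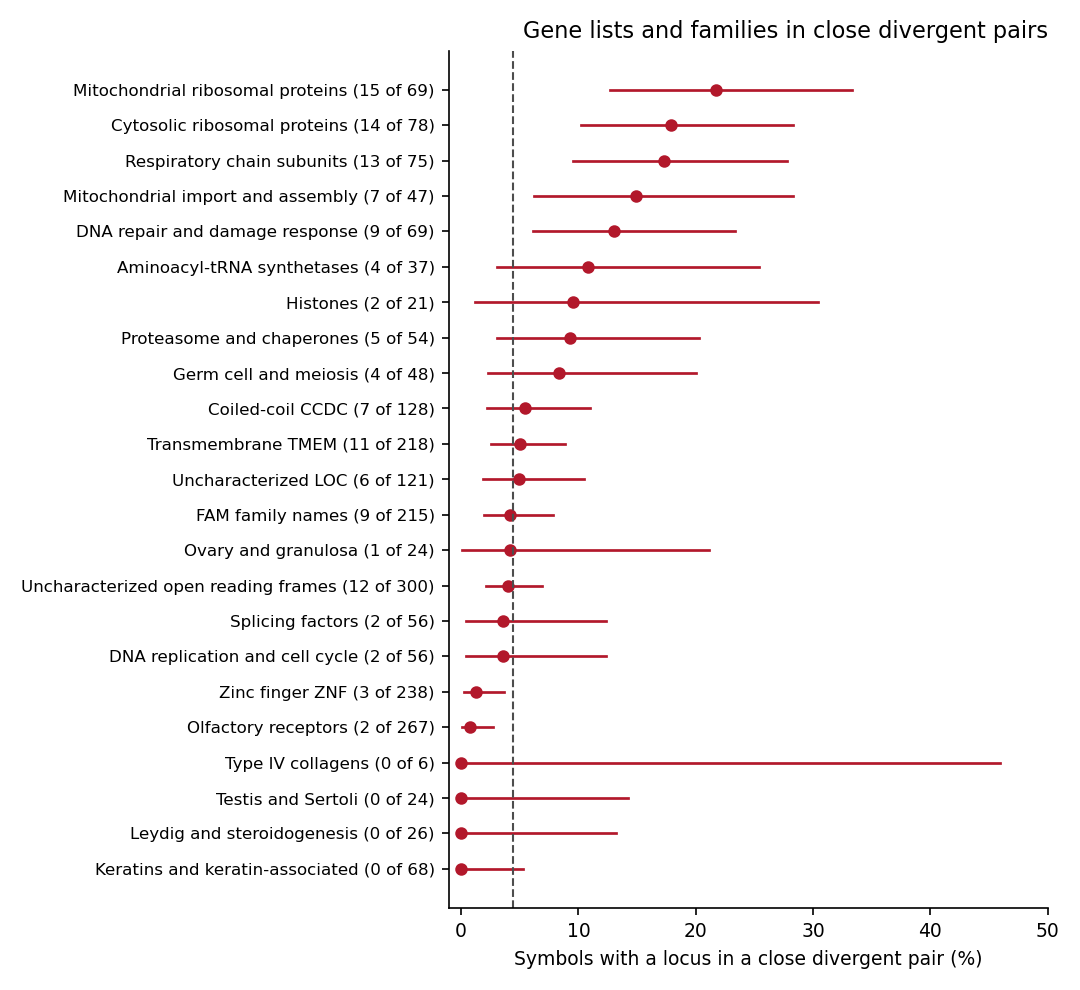
Share of symbols with a locus in a close divergent pair (points, percent) with its 95% exact binomial interval (lines) for 23 lists and families, with member counts in brackets; the dashed line marks the 4.4% of all symbols. The mitochondrial ribosomal proteins stand highest at 21.7%, and keratins stand at 0 with an upper limit of 5.28%.

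Neighbours with alike names were counted by their first 3 letters, which do not show descent and miss relatives with unlike names. Such names were less frequent in divergent than in same-strand pairs. Among pairs of different symbols, 14 of 355 divergent pairs or 3.94% (2.17 to 6.53%) shared the first 3 letters of their names, against 13 of 674 convergent pairs or 1.93% (1.03 to 3.28%) and 95 of 569 same-strand pairs or 16.7% (13.7 to 20%). Several were functional partners. ABCG5 and ABCG8, which together form the sterol transporter of liver and gut, faced each other across 397 bases. CD3D and CD3G, of the T cell receptor complex, faced each other across 1574 bases, and DUOXA2 and DUOX2, maturation factor and oxidase of hydrogen peroxide production in the thyroid, across 1011 bases. DCST1 and DCST2, needed by sperm at fertilisation, were 280 bases apart, and SAFB2 and SAFB, which bind nuclear scaffold DNA, were 650 bases apart.

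The models in close divergent pairs were mostly multi-exon models, as in convergent pairs. Their median was 7 coding exons (7 to 8), against 8 (8 to 9) in convergent pairs, 5 (5 to 6) in same-strand pairs and 6 over all named loci. Single-exon models made up 5.71% of the divergent loci (41 of 718, 4.13 to 7.67%), 4.99% of the convergent and 17.1% of the same-strand loci, where all named loci had 20%. The class of 5 to 9 exons held 267 of the 718 divergent loci. Among the largest exon sums were 59 in NPHS1/KIRREL2 (adhesion proteins of the kidney slit diaphragm) and 58 in PTCD3/POLR1A (a mitochondrial ribosome protein and the large subunit of RNA polymerase I). In 2 pairs both members had a single exon, RPL36AL/MGAT2 at 1422 bases and EXOC8/SPRTN at 642 bases; these were named after their values were seen. Coding length had a median of 1184 bases in divergent and 1292 in convergent loci.

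**Figure D4:**
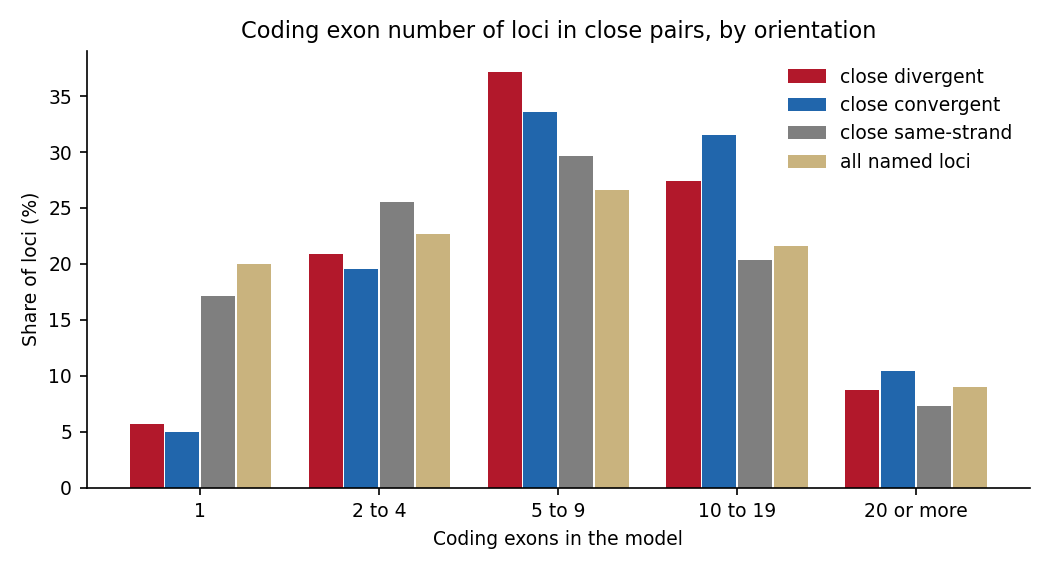
Share of loci (percent) by number of coding exons for close divergent, convergent and same-strand pairs and for all named loci. In the single-exon class the divergent bar stands at 5.71% and the convergent at 4.99%, below the 17.1% of same-strand loci and the 20% of all named loci.

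Each scored model carries a score against a reference transcript and the highest score of any locus with its symbol. The sources do not say what the score counts. In close divergent pairs, 665 of 717 scored loci or 92.7% (90.6 to 94.5%) held the highest score of their symbol, against 92.5% in convergent and 55.8% in same-strand pairs and 76.1% of all scored loci. Below 50% of the highest score lay 21 divergent loci, or 2.93%, against 3.45%, 25.4% and 10.2%. With pairs of a single symbol left out, the same-strand shares were 76.4% at the highest score and 9.85% below 50% of it. These lay near the 76.1% and 10.2% of all scored loci. The median score was 1136 in divergent, 1220 in convergent and 782 in same-strand loci. The lowest were partial loci beside a locus with the highest score of its symbol. They were QSER1 at 7.03% of its highest score beside MRPS24 (441 bases), ITGAE at 13.1% beside GSG2 (1517) and ATG9A at 14.1% beside ANKZF1 (1059). AKAP3 at 16.9% lay beside NDUFA9 (83) and SPINT1 at 21.3% beside the best SPINT1 locus (220). The ITGAE locus aligned from base 3737 of its transcript, and another ITGAE locus on the same strand lay beyond GSG2. Further loci of ATG9A and AKAP3 also lay next to these on the same strand. Whether such loci are parts of a single split gene model was not tested. Besides the SPINT1 and L1CAM pairs, 2 loci of COASY, an enzyme of coenzyme A synthesis, were 1081 bases apart and 2 loci of TMED9, a cargo receptor of the secretory pathway, were 1976 bases apart. In the pair ZGPAT/RTEL1, 563 bases apart, the RTEL1 model was aligned against the direction of its transcript, so its strand is uncertain.

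The ends that face the gap were not always aligned. Of 717 facing ends in divergent pairs, 157 or 21.9% (18.9 to 25.1%) had at least 100 coding bases beyond the aligned part, against 23.3% in convergent and 29.3% in same-strand pairs. In the class below 100 bases this held for 25.5% of divergent and 47.7% of convergent ends. Both facing ends were aligned to within 10 bases in 154 divergent pairs, whose median gap was 657 bases, and 18 of these 154 gaps were below 100 bases. For these 154 pairs the reference transcripts showed how much leader, the stretch before the first aligned base, would have to fit into the gap. The summed leaders had a median of 475 bases (445 to 545). Gap minus leaders had a median of 95 bases (39 to 216). In 56 pairs the gap was no longer than the leaders, in 75 pairs fewer than 1000 bases were left and in 23 pairs 1000 or more. The leaders belong to reference transcripts and not to mole transcripts, so this distance is an estimate. In partial copies the stretch counted as leader can also hold coding sequence. The PTGR1 copy beside PTGR2, at 32.1% of its highest score, aligned from base 835 of its transcript.

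The order of these pairs was nearly always that of the mouse. Both symbols had a single locus in mole and mouse for 211 of the 359 pairs, and 209 of them or 99.1% (96.6 to 99.9%) were divergent neighbours in the mouse genome too (GRCm38), with no gene of the shared set between them. Convergent pairs kept their order in 384 of 394 cases or 97.5% (95.4 to 98.8%), same-strand pairs in 262 of 271 or 96.7% (93.8 to 98.5%), and all adjacent pairs in 95.6%. Among divergent pairs the share was 97.4% for gaps from 2000 to under 10000 bases, 95.5% from 10000 to under 100000, and 91.9% above that. The 2 pairs without the mouse order were MRPL49/ZNHIT2 (548 bases, a mitochondrial ribosomal protein and a zinc finger protein of snoRNP assembly) and CYTH1/C1QTNF1 (1794 bases, an exchange factor of small GTPases and a secreted protein). Neither was adjacent in the later mole assembly MPIMG_talOcc4v2.1. In that assembly 197 of 202 divergent pairs or 97.5% (94.3 to 99.2%) were neighbours, where all adjacent pairs had 97.4%. Others that were not adjacent there included LRRIQ3/TNNI3K and ZFPL1/CDCA5, both divergent neighbours in the mouse.

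Order was kept more closely than distance. In 198 of the 209 kept pairs no mouse protein-coding gene lay between the members. Their median gap was 737 bases in the mole (549 to 984) and 924.5 between coding spans in the mouse (753 to 1155). The mouse gap was larger in 121 pairs and smaller in 77, and it lay between 0.5 and 2 times the mole gap in 95 pairs, or 48% (40.8 to 55.2%). For kept convergent pairs that share was 69.2% (64.2 to 73.8%), and for kept same-strand pairs 39% (32.9 to 45.4%). The mole and mouse gaps had a Spearman correlation of 0.23 across the 198 divergent pairs. It was 0.54 across 373 convergent and -0.069 across 246 same-strand pairs, so divergent pairs lay between the other 2 orientations. The limit restricts the mole values, and the pairs are not replicates. Where both facing ends were aligned to within 10 bases, the median gaps were 715 bases in the mole and 721.5 in the mouse (90 pairs), and 56.7% (45.8 to 67.1%) lay within the same factor.

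Several pairs had nearly the same gap in both species. NDUFA7/RPS28 had 164 bases in the mole and 158 in the mouse, COPE/DDX49 (a coat protein of Golgi vesicles and an RNA helicase) had 384 and 370, and NPHS1/KIRREL2 had 1616 and 1614. The largest differences were found for CKAP4/TCP11L2 with 1246 against 51033 bases, JAG2/BTBD6 with 1597 against 47122, LRRIQ3/TNNI3K with 157 against 43399, PDIA3/STRC with 23 against 33177 and ALG3/ECE2 with 198 against 19271. In 4 of these 5 pairs other mouse genes lay between the members, and CKAP4/TCP11L2 had none. In the same 4 pairs STRC, ECE2, TNNI3K and BTBD6 had 1854, 924, 342 and 164 unaligned coding bases facing the gap. The JAG2 model aligned only from base 2999 of its transcript. CKAP4 and TCP11L2 had 0 unaligned bases facing the gap. How much of these differences goes with the ends of the models was not tested. CKAP4 anchors endoplasmic reticulum to microtubules, JAG2 is a Notch ligand, TNNI3K is a kinase of heart muscle, ALG3 is a mannosyltransferase and ECE2 is an endothelin-converting enzyme.

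**Figure D5:**
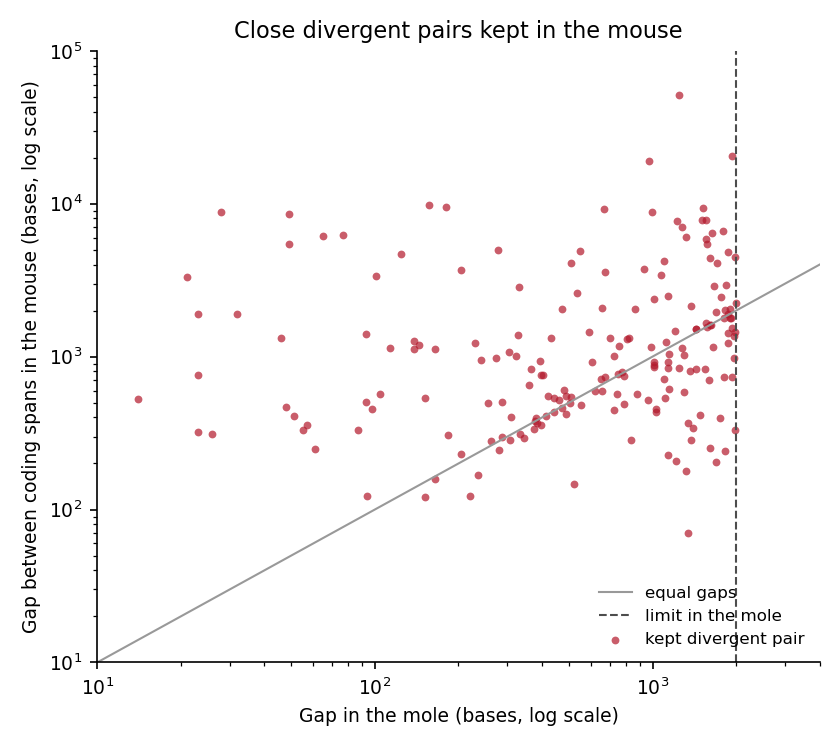
Gap between mouse coding spans against the gap in the mole, both in bases on log scales, for close divergent pairs kept in the mouse with no gene between (each point is a pair; the line marks equal gaps and the dashed line the limit). Of 198 pairs, 121 had the larger gap in the mouse; 3 whose mouse coding spans overlap are not drawn.

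Mouse transcripts include leaders, so the distance between their starts is by construction no larger than the gap between coding spans. Overlap was counted as a negative distance. Between the outermost annotated transcript starts of the 198 pairs the median mouse distance was 95.5 bases (55 to 165). In 62 pairs the transcripts overlapped, in 106 the starts were apart by fewer than 1000 bases, and in 30 they were 1000 or more apart. Overlapping transcripts did not always have near starts, with distances of -19605 bases in SASS6/TRMT13 and -14874 in LMBRD2/SKP2. Overlap of any length, or starts under 1000 bases apart, was thus found in 168 of 198 pairs or 84.8% (79.1 to 89.5%). This share was 56.5% (51.2 to 61.7%) in kept divergent pairs with mole gaps from 2000 to under 10000 bases and 18.5% from 10000 to under 100000 bases. By mole gap class, the median mouse start distance was 57 bases below 100 bases, 89 from 100 to under 500, 81 from 500 to under 1000 and 137 from 1000 to under 2000, with intervals that overlap. MRPS11/MRPL46, at 1987 bases among the widest in the mole, had a mouse coding gap of 331 bases and mouse starts 30 bases apart.

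Looking from the mouse, the limit left out many pairs that are close there. Of 563 mouse divergent pairs below 2000 bases, 281 had both symbols at a single locus in both species. In the mole, 263 of these or 93.6% (90.1 to 96.2%) were adjacent and divergent, 144 or 51.2% (45.2 to 57.2%) were close and 119 had a gap at or above the limit. For mouse convergent pairs the close share was 72.1% (67.4 to 76.6%, 277 of 384). For mouse same-strand pairs it was 57.4% (50 to 64.6%, 108 of 188), an interval that overlaps that of divergent pairs.

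A set of 31 pairs was recalled as head-to-head pairs from general knowledge of mammalian genomes. Of these, 26 were adjacent and divergent in the mole and 7 were close, among them TIMM8B/SDHD (235 bases), HARS2/HARS (343), COPE/DDX49 (384), SARS2/MRPS12 (552), TBP/PSMB1 (1875, the TATA-binding protein and a proteasome subunit) and DCLRE1A/NHLRC2 (1934). The type IV collagen genes of basement membranes kept the arrangement at wide coding gaps, with 109790 bases for COL4A1/COL4A2, 67087 for COL4A3/COL4A4 and 296347 for COL4A5/COL4A6, and the mouse coding gaps of the latter 2 were 15930 and 1916 bases. HSPD1 and HSPE1, the 2 subunits of the mitochondrial chaperonin, were not adjacent in the mole annotation.

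Close divergent pairs had shorter outer gaps than close pairs of the other orientations. The outer gap, from a member to its next named neighbour on the far side, had a median of 4155 bases (3659 to 5328), against 7662 around convergent and 8635 around same-strand pairs. The outer gaps of a divergent pair can only be convergent or same-strand, and those of a convergent pair only divergent or same-strand. Over all adjacent pairs the median gaps were 10873 bases for convergent, 18011 for same-strand and 29568 for divergent neighbours. Density and orientation can therefore not be told apart here. Of 714 outer gaps 235 or 32.9% (29.5 to 36.5%) were themselves below 2000 bases, 19 of them because the neighbours overlapped, against 23.1% (20.9 to 25.5%) and 22.7% (21 to 24.5%). On both sides this held for 52 pairs, on a single side for 131 and on no side for 176. With overlapping neighbours not counted as close, the numbers were 43, 130 and 186. Joined by such gaps without overlap, the pairs lay in 343 runs of loci, of which 186 held the pair alone and 2 held 9 loci. In order, the first of these held DAXX, ZBTB22, TAPBP, RGL2, PFDN6, WDR46, B3GALT4, RPS18 and VPS52 on scaffold 20 (42698161 to 42762960), with PFDN6/WDR46 and RPS18/VPS52 as its divergent pairs; TAPBP encodes tapasin of antigen loading. The other held ZMAT2, HARS2, HARS, DND1, WDR55, 2 loci of IK, NDUFA2 and TMCO6 on scaffold 3 (53281605 to 53335016), with HARS2/HARS and IK/NDUFA2 as its divergent pairs; DND1 is needed for the survival of germ cells. No line without a symbol lay in any of the 359 gaps. The pairs were spread over 46 scaffolds, with 28 on scaffold 2, and 346 of them lay on scaffolds annotated to 1000000 bases or beyond.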

How the data were processed

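Per the labels, polyadenylated RNA of gonads was sequenced. STAR 2.6.1d and the build mm9 appear in the submitters' processing notes; how reads were counted is not given there. The file used was the talOcc3 annotation, with 0 columns of per-sample values. Start, end and the model score were deposited by the authors; no source used here says how models and scores were made. The score was used as a percent of the highest score of its symbol.

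Transcript and coding parts were assigned to each of 23336 gene lines in Python 3.11.15 (numpy 2.4.6, scipy 1.17.1, figures matplotlib 3.10.9). Copy suffixes were removed from names, 1846 lines without a symbol were left out and 616 overlapping neighbours were not paired. Groups were taken from sample titles, since the strain labels of the B6 and Fgf9 libraries differ in a running number. No group was compared. Mouse genes were protein-coding coding spans of GENCODE M21, matched by symbol (12412 at a single locus in both). The later mole assembly gave only neighbour order (12192 symbols). No coordinate was converted. Shares have 95% exact binomial intervals, and medians have 95% order-statistic intervals. No sequence of the mole assembly was used here. All 200 pairs planted in each orientation in simulated annotations were found.

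The pairs, lists and tests were chosen with earlier results of these data known. Named pairs were the 5 smallest gaps with ties, 3 on each side of the limit, up to 6 by list, recalled pairs, extremes of exon number, score and mouse difference, and pairs of a single symbol or without mouse order; further named pairs were chosen after their values were seen. A few genes that this rule names are not reported here. Alternatives covered the gap limit, lines without a symbol, model type, exon number, coding length, scaffold size, score, coding ends, facing-end alignment, best loci and the mouse span; the last 3 were added after seeing the data.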

Additional observations from a re-analysis of the deposited data

How the results depend on the processing

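Of 167 values recomputed under the alternatives, 142 moved by less than their interval or by less than 1.5 times. A limit of 1000 bases gave 217 pairs with a median gap of 310 bases and a median mouse gap of 747, and a limit of 5000 gave 703 pairs, 1973 bases, 8.04% single-exon loci and a mouse gap of 1892; the main values were 359 pairs, 688 bases, 5.71% and, over all 209 kept pairs, 976. With lines without a symbol counted as genes, the median gap was 549 bases, the median exon number 6 and the single-exon share 17.3%. Only EVM models gave a single-exon share of 0, as did, by construction, only models with more than 1 exon. The share of pairs of a single symbol was 0 with those pairs left out and 0.296% at 50% of the highest score or more. With facing ends aligned to within 10 bases (chosen after seeing the data) there were 154 pairs, 8.12% single-exon loci, 100% kept in the mouse and a mouse gap of 707; the cause was not tested. The shares of the lists moved in the same 2 settings. With facing ends aligned they were 11.6% for mitochondrial ribosomal proteins, 5.13% for cytosolic ribosomal proteins and 6.67% for respiratory chain subunits, where all symbols had 1.89%; below 5000 bases they were 36.2% for mitochondrial ribosomal proteins, 29.3% for respiratory chain subunits, 29.8% for mitochondrial import and 34.8% for DNA repair, where all symbols had 8.54%. Divergent pairs stayed fewer than convergent pairs in each of these settings. No paired analysis was possible because no value belongs to a library, and no library could be left out. Gaps depend on model ends, symbols decide which genes match between species, and scaffold ends hide some neighbours.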
